A study of Homo sapiens with 8 samples.

Results

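Transglutaminases are calcium-dependent enzymes that join the glutamine of a protein to the lysine of another and so weld proteins into resistant networks. The 5 genes followed here, TGM1, TGM2, TGM3, TGM5 and F13A1, belong to a family of 9 in the human genome, and 37526 gene names were listed for all the libraries. They were taken by symbol and were chosen on their CPM (counts scaled to the size of the library) by group and replicate in these same libraries, so their levels and differences are a description and carry no test. The other 4 genes of the family, TGM4, TGM6, TGM7 and EPB42, were read alongside.

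The cells were NB4, a line derived from acute promyelocytic leukemia (APL) that carries the PML/RARα fusion and whose differentiation into granulocytes is unlocked by all-trans retinoic acid (ATRA). RNA was sequenced from 4 groups of 2 libraries: cells stably transduced with the pLVX-shRNA2-puro control vector (scramble; the labels call it an empty vector and the methods a scrambled hairpin), cells stably expressing a hairpin against the H3K9 demethylase KDM3B (shKDM3B), and both kinds of cells under ATRA (scramble+ATRA and shKDM3B+ATRA). The labels give ATRA at 1 µM for 24 or 48 hours without saying which applies to these libraries, the methods of the study give a higher concentration, and nothing in the sources names the hairpin used. They do not say whether the 2 libraries of a group came from separate cultures, so the spread between them may be technical.

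Tissue transglutaminase, encoded by TGM2, is found in many cell types, also binds GTP, and is a classical retinoid-responsive gene of maturing myeloid cells. TGM1, TGM3 and TGM5 encode the keratinocyte, epidermal and type X enzymes, best known for building the cornified envelope of the skin from proteins such as loricrin and involucrin. F13A1 encodes the catalytic subunit of coagulation factor XIII, which cross-links fibrin and is made by megakaryocytes and monocyte-lineage cells. EPB42 is a catalytically inactive relative that serves in the erythrocyte membrane.

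The libraries held from 9708739 to 33017787 read pairs on annotated genes. The silenced gene was checked first: KDM3B stood at 187 and 188 CPM in scramble, 76.3 and 86.1 in shKDM3B, 196 and 121 in scramble+ATRA, and 52.4 and 57.3 in shKDM3B+ATRA, so both silenced groups lay below their controls. Read pairs outside annotated genes made up 8.49 to 9.62% of those in the untreated libraries and in scramble+ATRA replicate 1, but 50.0 to 51.4% in the other 3 treated libraries. The 2 scramble+ATRA libraries differed by at least 4-fold in 5.35% of 12262 genes, against 0.201 to 0.210% within the other groups. Member values that rest on scramble+ATRA are therefore given with and without its replicate 1 where they part, and so are the linked genes that moved most. In the NB4 cells the promyelocyte gene MPO was the leading marker without ATRA, at 4282 to 5340 CPM in scramble, and the keratinocyte genes KRT5, KRT14, KRT6A, DSG3 and DSC3, the erythroid genes HBA1, HBA2 and HBB and the platelet genes PF4, GP9 and GP6 had 0 counts in all 8 libraries. Of the other keratinocyte markers, the desmosomal gene PERP was at 6.16 to 15.5 CPM in all libraries. It differed by -0.65 on the log2 scale in shKDM3B against scramble (edgeR adjusted p = 0.413). With ATRA its log2 fold change was 0.39 in scramble cells, where it was not called, and 1.02 in shKDM3B cells (edgeR adjusted p = 0.0047). In scramble+ATRA, PERP was at 9.74 CPM in replicate 1 and 15.5 CPM in replicate 2. The part of the split in reads outside genes was not tested. The erythroid heme synthesis gene ALAS2 had 0 counts in 5 libraries and 2, 7 and 3 in the 3 treated libraries with the high share outside genes.

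TGM2 was all but absent without ATRA and one of the most abundant transcripts with it. It had 0 counts in both scramble libraries, and 0 and 1 in the shKDM3B libraries. Under ATRA it reached 5833 and 5139 CPM in scramble+ATRA, from 95225 and 55759 counts, and 2267 and 2541 CPM in shKDM3B+ATRA, from 21535 and 25297 counts. Every treated library thus lay far above every untreated one, and both silenced treated libraries lay below both treated controls.

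Because the untreated libraries held at most 1 count, the change of TGM2 with ATRA can be given only as a bound against 3 counts per library. TGM2 was at least 39706-fold higher in scramble+ATRA than in scramble, and at least 19539-fold higher in shKDM3B+ATRA than in shKDM3B. These bounds cover counting error only, and no difference in TGM2 between scramble and shKDM3B was detectable at this depth.

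Under ATRA the mean of TGM2 was 5486 ± 491 CPM in the control (SD, n = 2) and 2404 ± 193 CPM in the silenced cells (SD, n = 2). The fitted log2 fold change of shKDM3B+ATRA against scramble+ATRA was -1.19 ± 0.15 (SE), and -1.09 without scramble+ATRA replicate 1, which leaves the 3 libraries with the high share of reads outside genes. The 4 ratios of a silenced to a control library ran from 0.389 to 0.494.

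Per kilobase of exon, which allows genes to be compared, the level of TGM2 was 690 CPM per kb in scramble+ATRA. It ranked 39 among 16633 genes with counts, a name listed for all the libraries and a known exon length. In shKDM3B+ATRA the level was 302 CPM per kb and its rank 75 of 16647. The transcript took 0.534% and 0.242% of the counts on gene names listed for all the libraries in these groups.

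**Figure D1:**
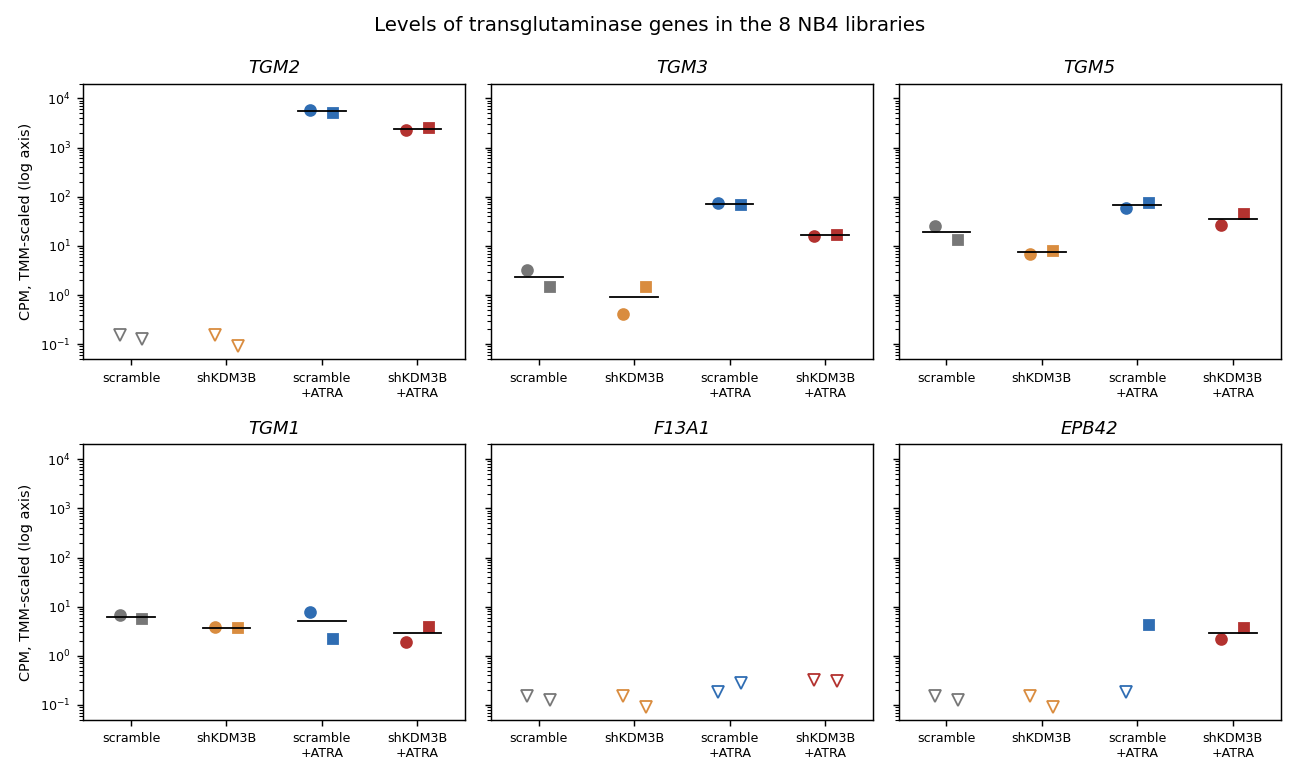
CPM (TMM-scaled, log axis) of TGM2, TGM3, TGM5, TGM1, F13A1 and EPB42 in the 4 groups, with circles for replicate 1, squares for replicate 2, a line at the group mean, and open triangles at the level of 3 counts for libraries with 3 counts or fewer. TGM2 goes from at most 1 count without ATRA to between 2267 and 5833 CPM with it, while F13A1 stays at 2 counts or fewer in all 8 libraries.

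TGM3, the epidermal enzyme, followed the same order at a lower level. It was at 3.31 and 1.43 CPM in scramble, 0.411 and 1.44 CPM in shKDM3B, 74.2 and 68.4 CPM in scramble+ATRA, and 16 and 16.9 CPM in shKDM3B+ATRA. All 4 treated libraries lay above all untreated ones, the silenced treated libraries lay below the treated controls, and the untreated groups overlapped.

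The log2 fold change of TGM3 with ATRA was 4.96 ± 0.41 (SE) in scramble cells and 4.09 ± 0.43 (SE) in shKDM3B cells. It was 5.64 without scramble replicate 1 and 4.45 without scramble replicate 2 in the former. In the latter it was 5.34 without shKDM3B replicate 2 and 3.51 without shKDM3B replicate 1. Under ATRA the silenced cells differed from the control by -2.11 ± 0.14 (SE), and by -2.04 without scramble+ATRA replicate 1. Without ATRA the difference was -1.27 ± 0.61 (SE) and rested on few counts, 66 and 34 in scramble against 8 and 47 in shKDM3B. It was -2.51 without shKDM3B replicate 2 and -0.55 without scramble replicate 1.

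TGM5, the type X enzyme, was the member with the highest level before treatment. It was at 25.4 and 13.4 CPM in scramble and at 6.98 and 8.03 CPM in shKDM3B. With ATRA it was at 59.3 and 74.9 CPM in scramble+ATRA and at 26.6 and 45.4 CPM in shKDM3B+ATRA. Neither pair of silenced and control groups overlapped, and the lowest library of shKDM3B+ATRA, at 26.6 CPM, stood close to the higher scramble library, at 25.4 CPM.

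Silencing of KDM3B went with a log2 fold change of TGM5 of -1.36 ± 0.31 (SE) without ATRA and -0.89 ± 0.33 (SE) with it, the latter being -1.04 without scramble+ATRA replicate 1. The value without ATRA was -0.83 when scramble replicate 1 was left out and -1.75 when scramble replicate 2 was. The value with ATRA ran from -1.32 without shKDM3B+ATRA replicate 2 to -0.56 without replicate 1 of that group. With ATRA, TGM5 differed by 1.83 ± 0.34 (SE) in scramble cells and by 2.31 ± 0.26 (SE) in shKDM3B cells. Leaving out single libraries took the former from 1.42 to 2.33 and the latter from 1.85 to 2.62.

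TGM1, the keratinocyte enzyme, did not share this pattern. It was at 6.77 and 5.62 CPM in scramble, 3.85 and 3.68 CPM in shKDM3B, 7.90 and 2.21 CPM in scramble+ATRA, and 1.89 and 3.92 CPM in shKDM3B+ATRA. The untreated groups did not overlap, while the 2 scramble+ATRA libraries lay on either side of most of the others and differed from each other by 3.57-fold.

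For TGM1 the log2 fold change of shKDM3B against scramble was -0.72 ± 0.27 (SE). Under ATRA it was -0.80 ± 0.82 (SE), and it turned to 0.41 without scramble+ATRA replicate 1. With ATRA in scramble cells it was -0.25 ± 0.57 (SE), which became -1.45 without scramble+ATRA replicate 1 and 0.36 without replicate 2. In shKDM3B cells it was -0.31 ± 0.37 (SE), which became 0.09 without shKDM3B+ATRA replicate 1 and -0.96 without replicate 2. None of these directions under ATRA held over the libraries.

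F13A1 was not detectable beyond 2 counts in any library. It had 0 counts in the 4 untreated libraries, 0 and 1 in scramble+ATRA, and 2 and 0 in shKDM3B+ATRA. A level of up to 0.0920 to 0.316 CPM, the worth of 3 counts in the deepest and the shallowest library, would go unseen. The markers of the cells that make factor XIII were low: the monocyte and macrophage list of 8 genes summed to 3.44 to 8.18 CPM without ATRA and to 9.68 to 34.8 CPM with it, with CD163 at 0 throughout. The megakaryocyte and platelet list summed to 1.85 to 7.83 CPM. ITGA2B, the platelet integrin chain, made up nearly all of it without ATRA but 1.68 and 2.71 CPM of the 5.16 and 6.43 CPM in shKDM3B+ATRA. There the von Willebrand receptor gene GP1BA was at 1.79 and 1.91 CPM and the platelet tubulin gene TUBB1 at 1.58 and 1.51 CPM, at least 15.0-fold and 12.5-fold higher than in shKDM3B (edgeR adjusted p = 9.2e-05 and 0.00026). In scramble+ATRA, TUBB1 had 0 counts in replicate 1 and 30 in replicate 2, so it followed the split in reads outside genes. GP1BA had 0 and 4 counts there and parted the same way on few counts. The part of that split was not tested for either gene.

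The remaining family genes added little. TGM6 had 0 counts in all 8 libraries, TGM7 at most 1 and TGM4 at most 2. EPB42 had 1 to 3 counts in the untreated libraries, 2 and 45 in scramble+ATRA, and 21 and 37 in shKDM3B+ATRA. Its 2 scramble+ATRA libraries, at 0.123 and 4.15 CPM, differed by 33.9-fold, and the low one was replicate 1, so the EPB42 level followed the split in reads outside genes; their part in the result was not tested. In shKDM3B+ATRA it was at least 24.1-fold higher than in shKDM3B (edgeR adjusted p = 6.8e-05).

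**Figure D2:**
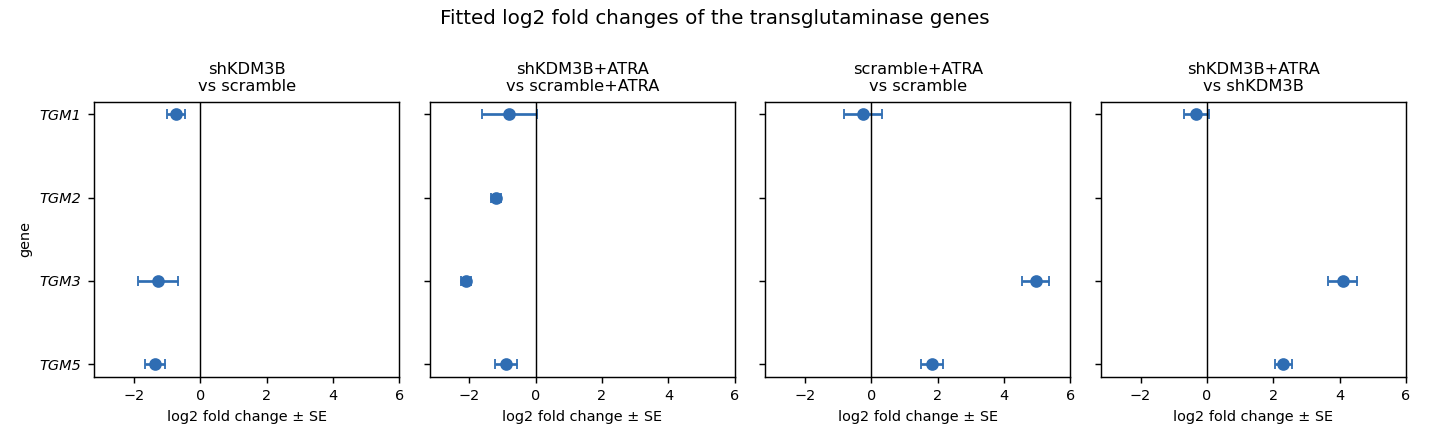
Fitted log2 fold changes with standard errors (horizontal axis, log2 units) of TGM1, TGM2, TGM3 and TGM5 in the 4 comparisons, each with 2 libraries per group. TGM2 is drawn only for shKDM3B+ATRA against scramble+ATRA, at -1.19, since elsewhere a group held at most 1 count; TGM3 and TGM5 lie right of 0 in both ATRA comparisons and left of it in both KDM3B comparisons.

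The study calls a gene changed at an unadjusted P-value under 0.05 and a fold change of at least 1.5. By that rule in shKDM3B against scramble, TGM1 and TGM5 were lower, 2 of 3 members tested, where 3.53% of 13855 genes were lower and 3.48% higher (4.82% and 6.73% without scramble replicate 2). In shKDM3B+ATRA against scramble+ATRA, TGM2 and TGM3 were lower, 2 of 4 tested, where 4.37% of 14281 genes were lower and 2.42% higher. That share depended on the library: 8.19% were lower and 8.78% higher without scramble+ATRA replicate 1, 13.3% and 23.2% without its replicate 2, 0.624% and 0.265% without shKDM3B+ATRA replicate 1, and 1.45% and 0.438% without its replicate 2. In scramble+ATRA against scramble, TGM2, TGM3 and TGM5 were higher, 3 of 4 tested, where 15.0% of 12429 genes were higher and 10.8% lower (6.79% and 5.11% without scramble replicate 1, 6.94% and 4.11% without its replicate 2, and 21.4% and 17.0% without scramble+ATRA replicate 1). The same 3 were higher in shKDM3B+ATRA against shKDM3B, of 4 tested, where 24.0% of 12756 genes were higher and 18.3% lower. At an edgeR adjusted p under 0.05 the members called were 0 in both KDM3B comparisons, in fits that passed 3 and 0 of all genes. DESeq2 passed 153 higher and 125 lower without ATRA and 121 and 236 with it, and its member calls at adjusted p were not read. Without ATRA the call of TGM1 was also lost with all 8 libraries in 1 fit and without scramble replicate 1, shKDM3B replicate 1 or shKDM3B replicate 2. Since the members were chosen on these levels, nothing is read from their counts. F13A1 passed the filter on low counts in no comparison and TGM2 not in the untreated one.

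The median log2 fold change of the members tested was -1.27 in shKDM3B against scramble and -1.04 in shKDM3B+ATRA against scramble+ATRA, where the medians over all genes were 0.00022 and 0.03. With ATRA it was 3.39 in scramble cells and 3.20 in shKDM3B cells, also with TGM2 at its bound, where those over all genes were 0.02 and 0.04.

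Whether ATRA acted differently on the members in silenced cells was read from the interaction over all 8 libraries, again with no test. The log2 response of silenced cells less the log2 response of control cells was -0.86 ± 0.72 (SE) for TGM3, 0.47 ± 0.50 (SE) for TGM5 and -0.09 ± 0.84 (SE) for TGM1. Leaving out single libraries took it from -1.58 to 0.43 for TGM3, from -0.06 to 0.85 for TGM5 and from -0.73 to 1.12 for TGM1, so none of the 3 kept its sign. For TGM2 the value cannot be fixed, since its untreated level is at or under 1 count in both kinds of cells.

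The make-up of the family switched with ATRA. Of the CPM per kb summed over the 9 genes, TGM5 held 58.2 to 69.0%, TGM1 18.2 to 33.3% and TGM3 4.92 to 14.3% in the 4 untreated libraries. In the 4 treated libraries TGM2 held 93.1 to 95.2%, TGM5 2.06 to 3.62%, TGM3 1.84 to 3.66% and TGM1 0.0853 to 0.308%. The order of levels per kb in scramble was TGM5, TGM1, TGM3, and in scramble+ATRA it was TGM2, TGM3, TGM5, TGM1. In shKDM3B+ATRA, TGM5 at 9.78 CPM per kb stood above TGM3 at 6.10 CPM per kb, the reverse of scramble+ATRA, where TGM3 was at 26.5 and TGM5 at 18.2 CPM per kb.

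**Figure D3:**
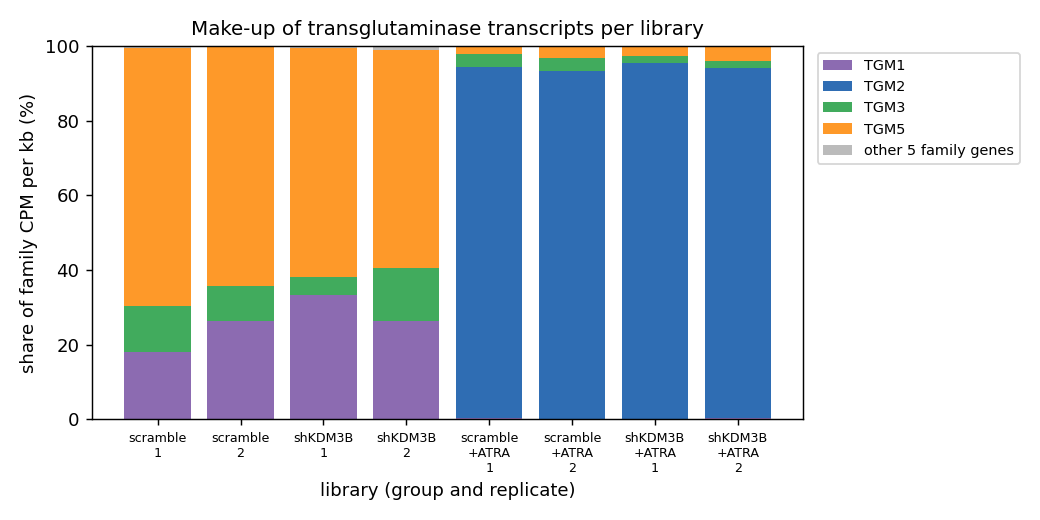
Share of each gene (vertical axis, percent) in the CPM per kb of exon summed over the 9 transglutaminase genes, for each of the 8 libraries. TGM5 holds 58.2 to 69.0% of the untreated bars and TGM2 93.1 to 95.2% of the treated ones.

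The 5 members lie on 4 chromosomes (hg38, GENCODE gene models). TGM1 is on chromosome 14 from 24249114 to 24264432, minus strand, between TINF2 and RABGGTA. TGM5 is on chromosome 15 from 43232590 to 43266928, minus strand, with EPB42 11572 bp to its lower side and TGM7 9343 bp to its upper side, and so forms a cluster of 3 family genes, of which TGM7 was silent. F13A1 is on chromosome 6 from 6144084 to 6321013, minus strand, between NRN1 and LY86. TGM2 and TGM3 share chromosome 20: TGM3 lies from 2296001 to 2341079 on the plus strand, with STK35 below it and the silent TGM6 39822 bp above it, and TGM2 from 38127385 to 38166578 on the minus strand. A gene model without a symbol covers 94.8% of the exon length of TGM3 on the same strand, so the counts of TGM3 are uncertain wherever the annotation used for counting held it.

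The start regions of TGM3 and TGM5 are shown because both genes stood higher with ATRA and lower with KDM3B silenced under ATRA. They are the 250 bases before the RefSeq start (GRCh38.p14), 5′ to 3′ on the strand of the gene, TGM3 at chr20:2295751-2296000 on the plus strand and TGM5 at chr15:43266929-43267178 on the minus strand. The table of promoters held 3 of the 5 members, TGM3, TGM5 and F13A1, and did not list TGM1 and TGM2. Capitals mark TATAAA and TGACCT in TGM3 and GGAAGT in TGM5.
TGM3: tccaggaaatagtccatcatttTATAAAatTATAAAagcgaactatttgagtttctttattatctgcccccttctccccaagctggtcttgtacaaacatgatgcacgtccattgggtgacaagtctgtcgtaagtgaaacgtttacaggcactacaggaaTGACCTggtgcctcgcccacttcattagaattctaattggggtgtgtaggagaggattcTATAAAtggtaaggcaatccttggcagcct
TGM5: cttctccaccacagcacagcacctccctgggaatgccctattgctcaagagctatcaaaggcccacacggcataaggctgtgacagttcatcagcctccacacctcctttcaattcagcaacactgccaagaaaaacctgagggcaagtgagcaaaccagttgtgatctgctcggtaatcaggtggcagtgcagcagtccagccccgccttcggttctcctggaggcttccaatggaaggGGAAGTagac
The letters searched were AGGTCA, the half-site that retinoid receptors bind (reverse TGACCT, both strands), GGAAGT, a core of ETS factors such as PU.1 (reverse ACTTCC, both strands), and TATAAA on the gene strand, and they were picked after the sequences had been seen. TGM3 held TATAAA 3 times, the last 30 to 25 bases before the start, and TGACCT 89 to 84 bases before it. TGM5 held GGAAGT 10 to 5 bases before its start, and neither of the other 2 motifs. Of 35116 promoters of this table, 12.1% held the half-site, 19.5% the ETS core and 6.80% TATAAA. F13A1, at 2 counts or fewer, held GGAAGT once and no half-site. A match of letters is a description and not a bound site.

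Around TGM2, its nearest gene on the upper side stood higher with ATRA as well. KIAA1755, 43.9 kb away, had 0, 0, 0 and 1 counts without ATRA, and was at 2.76 and 2.58 CPM in scramble+ATRA and 2.0 and 1.51 CPM in shKDM3B+ATRA. That was at least 19.3-fold higher in scramble cells (edgeR adjusted p = 0.0031) and at least 14.3-fold higher in shKDM3B cells (edgeR adjusted p = 0.00013).

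BPI, 137.6 kb from TGM2, encodes a bactericidal protein of neutrophil granules. It was at 0.201 and 0.210 CPM in scramble, 0.103 and 0.307 CPM in shKDM3B, 57.6 and 55.9 CPM in scramble+ATRA, and 37.5 CPM in both shKDM3B+ATRA libraries. Beyond KIAA1755, it was taken up because its pattern was the most like that of TGM2 over these libraries, so its values are a description. Both silenced treated libraries lay below both treated controls, as for TGM2.

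The genes on the lower side were present in every library. RPRD1B, which runs the opposite way and covers 4.98% of the exon length of TGM2, ranged from 70.6 to 100 CPM over the 8 libraries, and TTI1 from 41.5 to 80.5 CPM. With ATRA the log2 fold change of RPRD1B was -0.18 ± 0.20 in scramble cells and 0.01 ± 0.14 in shKDM3B cells (SE, edgeR adjusted p = 0.627 and 0.954). That of TTI1 was -0.42 ± 0.25 and -0.37 ± 0.16 (SE, edgeR adjusted p = 0.340 and 0.074). The library kit does not mark strand as named in the sources, so reads in that overlap cannot be assigned to a strand. In the untreated libraries TGM2 had at most 1 count while RPRD1B stood at 72.8 CPM or more.

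**Figure D4:**
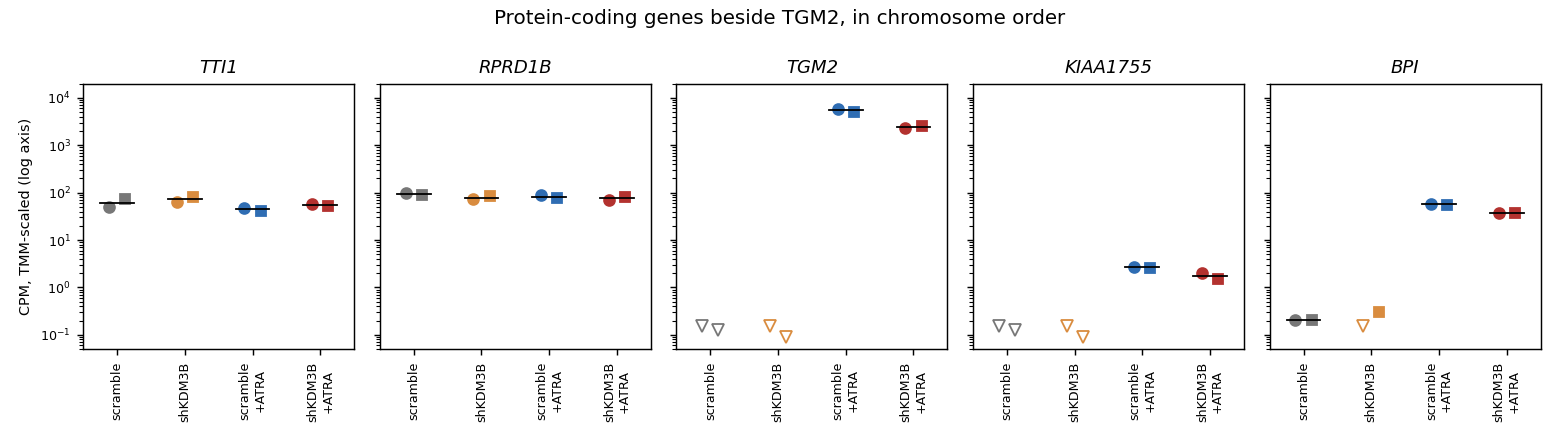
CPM (TMM-scaled, log axis) of the 5 protein-coding genes around TGM2 in chromosome order, by group, with circles for replicate 1, squares for replicate 2, lines at group means and open triangles at the level of 3 counts for libraries with 3 counts or fewer. TTI1 and RPRD1B stay between 41.5 and 100 CPM, whereas TGM2, KIAA1755 and BPI are at or near 0 without ATRA.

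Genes with a pattern like that of each member were looked for among 11937 genes with a mean of at least 1 CPM, by Pearson's r of log2(CPM + 1) over the 8 libraries. These r values describe points that share libraries and the treatment, and carry no p. For TGM2 the most alike were BPI (r = 0.9997), described above, FOLR3 (r = 0.9995), a secreted folate receptor of neutrophil granules, and AP000439.3 (r = 0.999). For TGM3 they were CD79A, a B cell receptor chain (r = 0.992), SNAI3 (r = 0.991) and FTL, the ferritin light chain (r = 0.991).

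For TGM5 the most alike were the chemokine gene CCL2 (r = 0.992), TADA2B (r = 0.991) and the cyclin-dependent kinase inhibitor gene CDKN2D (r = 0.988). CCL2 was at 62.3 and 15.0 CPM in scramble, 0.257 and 1.38 CPM in shKDM3B, 472 and 709 CPM in scramble+ATRA, and 57.3 and 179 CPM in shKDM3B+ATRA, so its replicates parted widely, and scramble and shKDM3B+ATRA overlapped. CDKN2D was at 25.9 and 20.04, 9.35 and 13.2, 77.0 and 81.2, and 35.3 and 61.5 CPM in the same order. For TGM1 they were RUFY1 (r = 0.962), KMT2E-AS1 (r = 0.952) and STOML1 (r = 0.951). Among the members, r was 0.941 for TGM2 and TGM3, 0.946 for TGM3 and TGM5, 0.863 for TGM2 and TGM5, and between -0.32 and -0.03 for TGM1 with the other 3.

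The proteins that transglutaminases bind, are regulated by or cross-link were read from 4 lists of 60 genes, or 64 with the 4 further family genes. In shKDM3B against scramble, 0 of 30 linked genes tested were higher and 4 lower by the rule of the study, where 3.48% and 3.53% of all genes were, and 0 passed an adjusted p of 0.05. They were LGALS3, the substrate galectin-3 (log2 fold change -2.01 ± 0.46; edgeR adjusted p = 0.163), THBS1, the platelet matrix protein thrombospondin-1 (-1.60 ± 0.43; adjusted p = 0.222; -0.59 without scramble replicate 1), the nuclear receptor gene PPARG (-0.81 ± 0.30; adjusted p = 0.410) and CSTA, cystatin A of the cornified envelope (-0.72 ± 0.28; adjusted p = 0.436). THBS1 was at 113 and 36.9 CPM in scramble and at 22.4 and 26.7 CPM in shKDM3B. The median log2 fold change was 0.18 over 11 tested partners of tissue transglutaminase, -0.13 over 15 of its substrates and -0.35 over 3 cornified envelope genes.

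In shKDM3B+ATRA against scramble+ATRA, 2 of 34 tested were higher and 3 lower, where 2.42% and 4.37% of all genes were, and 0 passed an adjusted p of 0.05. ITGAV and ITGA5, the chains of fibronectin-binding integrins that tissue transglutaminase accompanies at the cell surface, differed by 0.69 ± 0.17 and 0.61 ± 0.13 on the log2 scale. The cornified envelope proteins SERPINB2 and CSTA differed by -2.52 ± 0.57 and -0.95 ± 0.26, and S100A11 by -0.71 ± 0.19 (SE, edgeR adjusted p = 0.502 for each of the 5). Without scramble+ATRA replicate 1 the values were 0.62 for ITGAV, 0.72 for ITGA5, -2.72 for SERPINB2, -1.18 for CSTA and -0.73 for S100A11, with edgeR adjusted p of at most 0.0057, the lone control library being taken to vary like the silenced pair. SERPINB2 was at 7.72 and 10.6 CPM in scramble+ATRA and at 0.947 and 2.21 CPM in shKDM3B+ATRA. The median was 0.13 over 12 partners, -0.09 over 15 substrates and -1.16 over 4 cornified envelope genes. The count called here ran from 0 to 11 when single libraries were left out, with 8 without scramble+ATRA replicate 1 and 0 without shKDM3B+ATRA replicate 1.

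With ATRA in scramble cells, 5 of 32 linked genes tested were higher and 8 lower, where 15.0% and 10.8% of all genes were, and 3 and 5 of them at an adjusted p under 0.05. Without either scramble library, 0 genes in all passed an adjusted p of 0.05 with the fold of 1.5, so the adjusted p of this comparison rest on both. Of 11 tested partners and regulators of tissue transglutaminase, 0 were higher and 4 lower, with a median log2 fold change of -0.49. ITGA5 fell by 1.86 ± 0.21 on the log2 scale (SE, edgeR adjusted p = 0.0019) and the heparan sulfate co-receptor SDC4 fell by 1.72 ± 0.33 (SE, edgeR adjusted p = 0.016), while the Wnt co-receptor LRP5 was at -1.16 ± 0.31 (SE, edgeR adjusted p = 0.052).

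Of 15 tested substrates of tissue transglutaminase, 3 were higher and 3 lower, with a median of 0.05. VIM, the intermediate filament vimentin, went from 318 and 511 CPM in scramble to 12 and 10.6 CPM in scramble+ATRA and fell by 5.16 ± 0.32 on the log2 scale (SE, edgeR adjusted p = 0.00021). PPARG fell by 3.80 ± 0.55 (SE, edgeR adjusted p = 0.0051, -3.24 without scramble+ATRA replicate 1), and ANXA1, the annexin that neutrophils carry, rose by 0.97 ± 0.22 (SE, edgeR adjusted p = 0.030).

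In shKDM3B cells, 8 of 34 linked genes tested were higher with ATRA and 10 lower, where 24.0% and 18.3% of all genes were, and 8 and 9 at an adjusted p under 0.05. Of 12 tested partners 3 were higher and 5 lower, with a median of -0.28. LRP5 fell by 1.80 ± 0.15 (SE, edgeR adjusted p = 1.0e-05), FN1, fibronectin, rose by 2.10 ± 0.45 (SE, edgeR adjusted p = 0.0040), and the adhesion receptor gene ADGRG1, at 0 counts in both shKDM3B libraries and 12 and 9 in shKDM3B+ATRA, was at least 8.81-fold higher (edgeR adjusted p = 0.00052). ADGRG1 had 4 and 20 counts in the scramble+ATRA libraries, 0.245 and 1.84 CPM, the low one again being replicate 1, and the part of the split in reads outside genes was not tested. Of 15 tested substrates 1 was higher and 4 lower, with a median of 0.14. VIM fell by 5.79 ± 0.35 (SE, edgeR adjusted p = 1.4e-06), PPARG fell by 1.95 ± 0.38 (SE, edgeR adjusted p = 0.0023) and ANXA1 rose by 1.14 ± 0.13 (SE, edgeR adjusted p = 8.7e-05).

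The cornified envelope, the skin structure that TGM1, TGM3 and TGM5 build, was largely missing here. IVL, LOR, FLG, TCHH, RPTN, KRT1 and the 4 SPRR genes of the list had 0 counts in all 8 libraries, and 4 of the 16 genes were tested in each comparison but the untreated one, where 3 were. EVPL, the plakin envoplakin, was at 27.2 and 26.9 CPM in scramble and 7.29 and 3.59 CPM in scramble+ATRA, and fell by 2.27 ± 0.37 (SE, edgeR adjusted p = 0.0083, -2.87 without scramble+ATRA replicate 1). In shKDM3B cells it fell by 3.27 ± 0.27 (SE, edgeR adjusted p = 9.8e-06). SERPINB2 rose by 6.05 ± 0.63 in scramble cells (SE, edgeR adjusted p = 0.0015) and by 3.78 ± 0.67 in shKDM3B cells (SE, edgeR adjusted p = 0.0013), from at most 0.210 CPM without ATRA. The median over the 4 cornified envelope genes tested with ATRA was 0.17 in scramble cells and -0.08 in shKDM3B cells.

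Of the 13 genes around factor XIII and fibrin, FGA, FGB, FGG and PLG had 0 counts in all 8 libraries, and THBS1 and the coagulation factor V gene F5 were the ones tested with ATRA. F5 was at 0.0502 and 0.168 CPM in scramble and 20.6 and 8.48 CPM in scramble+ATRA and rose by 6.95 ± 0.72 (SE, edgeR adjusted p = 0.0014, 6.18 without scramble+ATRA replicate 1). From 0 and 3 counts in shKDM3B it was at least 59.1-fold higher in shKDM3B+ATRA (edgeR adjusted p = 1.3e-05). THBS1 rose in shKDM3B cells by 1.44 ± 0.19 (SE, edgeR adjusted p = 0.00021), from 22.4 and 26.7 to 54.0 and 74.5 CPM. The median of the pair was 3.67 in scramble cells and, with F5 at its bound, 3.66 in shKDM3B cells.

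Summed markers of maturation parted the treated groups, as TGM2 did, and also the untreated groups, where TGM2 had at most 1 count. Not all members of a list went with its sum. The granulocyte list of 8 genes, led by CYBB, the NADPH oxidase subunit of phagocytes, summed to 472 to 489 CPM in scramble, 273 to 281 CPM in shKDM3B, 2423 to 2540 CPM in scramble+ATRA and 1151 to 1375 CPM in shKDM3B+ATRA. With ATRA 6 of 7 tested were higher in scramble cells and 5 of 6 in shKDM3B cells, where 15.0% and 24.0% of all genes were, while MMP9, the gelatinase, went the other way, from 52.2 and 50.6 CPM in scramble to 1.84 and 1.75 CPM in scramble+ATRA, and fell by 4.80 on the log2 scale (edgeR adjusted p = 0.00014). The promyelocyte list of 7 genes summed to 4451 to 5531, 8550 to 9718, 707 to 844 and 2321 to 3222 CPM in the same groups. Most of it was MPO, which in scramble+ATRA was at 616 and 729 CPM, with CD33 at 87.9 and 110 CPM. Under ATRA, MPO differed by 1.99 between silenced and control cells on the log2 scale, CTSG by -0.79 and CD33 by -0.05 (edgeR adjusted p = 0.502, 0.632 and 0.932), and the median of the 3 tested was -0.05. As the samples are bulk, fewer mature cells and less TGM2 RNA per cell cannot be told apart, and the part of the maturation markers in the TGM2 difference was not tested.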

How the data were processed

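The deposited files hold a raw count of read pairs per gene for each of 8 libraries, which the authors made by trimming with Trim Galore, aligning to hg38 with HISAT2 and counting with HTSeq, with DESeq2 for their comparisons; versions are not given in the sources used here. The files list 56470 names for untreated and 56609 for treated libraries, and 37526 are common to both. Summary lines for reads outside genes (8.49 to 51.4%) and ambiguous reads (2.39 to 4.31%) were left out of library sizes.

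Each pair of groups was fitted with edgeR 4.0.16 in R 4.3.3 (filterByExpr, TMM, quasi-likelihood F test, Benjamini-Hochberg adjustment over all genes of the fit), without a block. The SE was the log2 fold change divided by the square root of F. CPM were computed from TMM-scaled sizes over the common names, and divided by GENCODE exon length for levels per kb. With 2 libraries per group, no exact permutation test can go below p = 0.333. Bounds use 3 counts per library.

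Alternatives were DESeq2 1.42.0, other scalings and filters, all 8 libraries in 1 fit, a replicate block, adjusted p and each library left out. The fits were tested on simulated data. Tables were handled with Python 3.11.15 and pandas 2.3.3, and figures drawn with matplotlib 3.10.9.

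The members and lists were chosen with earlier results of these data known. Genes were named by a rule: the members, KDM3B and the rest of the family; in each linked list and comparison up to 3 called genes of largest change; the 3 genes most like each member of at least 1 CPM; the nearest protein-coding neighbours; and the highest gene of each marker list, some of which are not reported here. BPI is named as both a likeness and a locus gene, and genes at 0 counts, GP1BA, TUBB1, MMP9, CTSG and CD33 were named after their values were seen.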

Additional observations from a re-analysis of the deposited data

Results flagged for a closer look

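Reads outside annotated genes, which enter none of the comparisons, stood above the level of the untreated controls (8.49 to 9.62%) in 3 treated libraries. Replicate 2 of scramble+ATRA was at 50.0%, and the pair of shKDM3B+ATRA libraries was at 51.4% and 51.0%. Scramble+ATRA replicate 1 was at 9.36%. Treatment and this share cannot be told apart in shKDM3B cells, where both treated libraries are high. Among the transglutaminase genes, TGM1 and EPB42 differed most between the 2 scramble+ATRA libraries, by 3.57-fold and 33.9-fold.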

How the results depend on the processing

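The members called were 2, 2, 3 and 3 in shKDM3B against scramble, shKDM3B+ATRA against scramble+ATRA, scramble+ATRA against scramble and shKDM3B+ATRA against shKDM3B, and 4, 5, 13 and 18 linked genes were. At an edgeR adjusted p under 0.05, the 2 members of either KDM3B comparison became 0 and the linked genes 0 and 0, and in scramble+ATRA against scramble 8 linked genes were left. Over all genes, 3, 0, 1604 and 6381 passed an edgeR adjusted p of 0.05, against 1411, 1383, 3436 and 7228 at an unadjusted p under 0.05. With the fold of 1.5 required too, these were 3, 0, 1604 and 5132. Leaving out a library took them to 195 to 632 in shKDM3B against scramble, to 1961 without scramble+ATRA replicate 1 and 5094 without its replicate 2 in the treated KDM3B comparison (0 without either shKDM3B+ATRA library), to 0 without either scramble library in scramble+ATRA against scramble (4411 and 2306 without its treated replicate 1 or 2), and to 3893 to 5746 in shKDM3B cells with ATRA. Over all genes the KDM3B comparisons also depended on the tool, at adjusted p and the fold of 1.5. In shKDM3B against scramble, DESeq2 passed 153 higher and 125 lower. The replicate block passed 428 and 352 there, and edgeR without the filter 298 and 257. In shKDM3B+ATRA against scramble+ATRA, DESeq2 passed 121 higher and 236 lower, and the other 2 settings 0. With all 8 libraries in 1 fit, shKDM3B against scramble had 1 member and 2 linked genes. Leaving out each library in turn gave 1 to 3, 2 to 4, 3 to 4 and 3 to 3 members, and 3 to 8, 0 to 11, 9 to 18 and 16 to 19 linked genes. In shKDM3B against scramble, TGM5 alone was called without scramble replicate 1 and without shKDM3B replicate 1. In shKDM3B+ATRA against scramble+ATRA, 4 members were called without scramble+ATRA replicate 2. The cause was not tested. Of 96 such counts under alternatives, 81 stayed within 1.5 times the main value, and of 217 member values 208 moved by less than the spread between libraries. Where that spread is wide this says little. The 208 include changes of sign, such as TGM1 in shKDM3B+ATRA against scramble+ATRA, from -0.80 to 0.41 without scramble+ATRA replicate 1.

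The replicate block gave 3 members in each of the 4 comparisons, TGM3 joining in shKDM3B against scramble and TGM5 in shKDM3B+ATRA against scramble+ATRA. Same-numbered libraries share only a number in the labels, and their deviations from the group means correlated at 0.389, 0.0261, -0.0731 and 0.183 in the 4 comparisons. DESeq2 called 2, 3, 3 and 3 members. Counts of 0 to 3 limit TGM2 without ATRA, F13A1 and EPB42.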
